A study of Mus musculus with 7 samples.

Results

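Fibroblast growth factor (FGF) receptors and the regulators that damp their signal were followed in embryonic sensory neurons homozygous or heterozygous for the Runx3-P2 allele. The set holds 10 genes of the 29777 in the count table: the receptors Fgfr1, Fgfr2, Fgfr3, Fgfr4 and Fgfrl1, and the feedback regulators Spry1, Spry2, Spry4, Spred1 and Dusp6. They were picked by symbol, with results of the comparison between the genotypes in these same libraries, that of Fgfr3 among them, already known. The differences between genotypes are therefore a description of the 10 genes, and nothing is read from a test of them.

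The cells were taken by flow sorting for GFP from cervical dorsal root ganglia (ICR mouse embryos, E11.5), and their RNA was sequenced. There were 4 homozygote libraries (Runx3-P2-/-, labelled Knockout) and 3 heterozygote libraries (Runx3-P2+/-, which the files call WT). Both genotypes carry the Runx3-P2 allele, which expresses GFP in TrkC neurons, so the comparison holds no embryos free of it. Runx3 is a Runt-family transcription factor of the neurons that become proprioceptors. The allele bears on the P2 promoter, and counts per gene do not separate transcripts of the P1 and P2 promoters. Embryos were pooled (4 to a pool, by the design text), and separate litters are not stated for the libraries, so errors measure only the spread between these 7 preparations.

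FGF receptors 1 to 4 are tyrosine kinases that bind FGF ligands together with heparan sulfate and switch on the Ras-ERK cascade. ERK activity in turn induces its own brakes: Sprouty and Spred proteins act on the cascade above ERK, and the phosphatase DUSP6 removes the activating phosphates from ERK itself. Transcripts of these regulators and of the ETS factors Etv4 and Etv5 are widely used as readouts of FGF signalling in embryos. In developing ganglia, FGF signals are known for roles in neural crest cells, sensory neurons and their precursors.

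Libraries held 11184237 to 13986835 counts. Runx3, the targeted gene, had 90, 148, 81 and 143 counts in the homozygotes, against 862, 1088 and 1087 in the heterozygotes. The 11 markers listed for TrkC sensory neurons, among them Ntrk3, Isl1 and Pou4f1, were all detected, and their summed level was 12496 to 22149 CPM (counts scaled to the TMM-corrected depth of the library) in the homozygotes and 21802 to 24766 CPM in the heterozygotes, most of it in a few abundant genes such as Tubb3. Ntrk3 was at 54.9 to 236 CPM in the homozygotes and 128 to 194 CPM in the heterozygotes. Estimates were below 0 for 10 of the 11, beside 7259 of all 14040 genes tested. Avil and Pou4f1 were lower in every homozygote library, beside 5.78% of all genes. edgeR called 1 of the 11, Avil, an actin-binding protein of sensory neurons, beside 0.0499% of all genes. Avil was at 28.7, 23.6, 14.02 and 36.1 CPM in the homozygotes, against 123, 99.5 and 191 CPM in the heterozygotes. The lowest sum was in homozygote library 3. In an earlier analysis of these data homozygote library 3 and heterozygote library 3 lay farthest apart, and each member's estimate without both is given beside its result. In these bulk libraries, a change in the share of 1 cell type cannot be told apart from a change in RNA per cell.

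Fgfr3 and Dusp6 were higher in every homozygote library than in any heterozygote library, and the other 8 genes overlapped between the genotypes. The filter on low counts kept 9 of the 10 genes, all but Fgfr4. Lack of overlap in 2 of these 9 genes stood beside 12.4% of all 14040 genes tested. edgeR called 0 of the 9 at an adjusted p below 0.05, beside 0.0499% of all genes, and 2 had an unadjusted p below 0.05, beside 12.6%. DESeq2 called 2 of the 9, Fgfr3 and Dusp6, beside 4.72% of the genes to which it gave an adjusted p. Fgfr3 alone was called by edgeR with its adjusted quasi-dispersion (0.434% of all genes), with no count filter (0.413%) and with a minimum count of 50 (0.391%), and limma-voom called none of the 9 (0.0427%). In the authors' deposited table the same 2 of the 8 members with an adjusted p were below 0.05, beside 4.69% of all genes with one. Nothing is read from any of these counts, because this comparison was used in choosing the set.

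**Figure D1:**
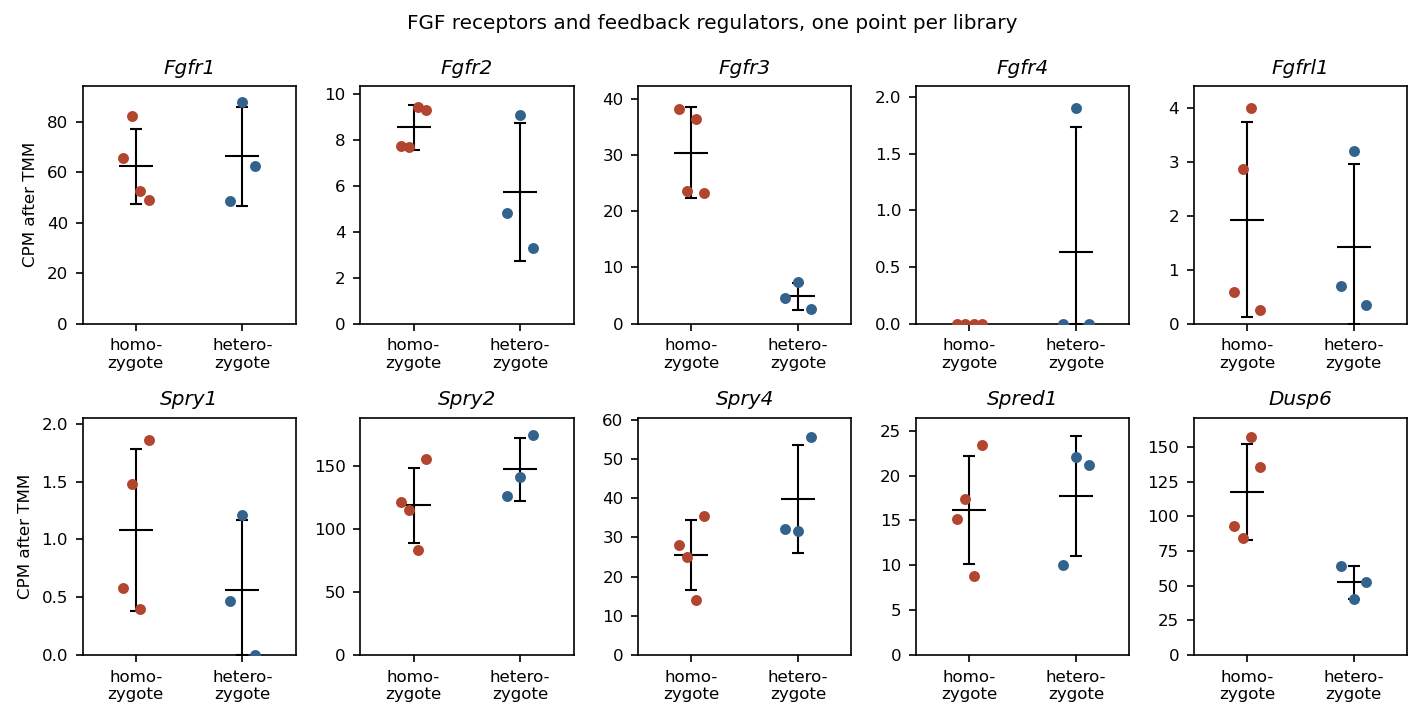
CPM after TMM scaling of each of the 10 genes in the homozygote libraries (4 points, left) and the heterozygote libraries (3 points, right); horizontal marks are means and bars are SD, cut at 0. Fgfr3 and Dusp6 show no overlap between genotypes, and each panel has its own linear axis from 0.

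Fgfr3 encodes a receptor known in mouse embryos from cartilage and from progenitors of the neural tube. It had 524, 304, 455 and 273 counts in the homozygotes, against 58, 86 and 30 in the heterozygotes. Scaled to CPM, these were 38.2, 23.6, 36.5 and 23.1 in the homozygotes, against 4.52, 7.44 and 2.61 in the heterozygotes. The lowest homozygote library lay well above the highest heterozygote library, and homozygote libraries 1 and 3 lay above libraries 2 and 4. The means were 30.4 ± 8.08 CPM (SD, n = 4) in the homozygotes and 4.86 ± 2.43 CPM (SD, n = 3) in the heterozygotes. The log2 fold change was 2.64 ± 0.42 (SE), a 6.24-fold difference, and it was 2.25 without both libraries 3. The authors' deposited table gave a log2 fold change of 2.39, with the sign turned to homozygote over heterozygote.

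Dusp6 encodes the cytoplasmic phosphatase that inactivates ERK. It had 1273, 1083, 1964 and 1601 counts in the homozygotes, against 824, 469 and 604 in the heterozygotes. The CPM were 92.8, 84.2, 157 and 136 in the homozygotes, against 64.2, 40.6 and 52.5 in the heterozygotes. The gap between the nearest libraries was smaller than for Fgfr3, and the order within the homozygotes differed: libraries 3 and 4 were highest for Dusp6. The means were 118 ± 34.8 CPM (SD, n = 4) in the homozygotes and 52.4 ± 11.8 CPM (SD, n = 3) in the heterozygotes. The log2 fold change was 1.16 ± 0.27 (SE), or 2.24-fold, and it was 0.99 without both libraries 3. The authors' deposited table gave 1.12 with the sign turned.

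The promoter windows of the pair without overlap are shown, with that of Spry2, the most abundant regulator, for comparison. Each is 300 bases, 250 before and 50 after the RefSeq start on GRCm38.p6, which is not the build the submitters name. Fgfr3 has a second annotated start, whose window is not printed. Capitals mark matches to CGGAA on either strand, the core letters bound by many ETS factors. The windows lie at chr5:33721474-33721773 (plus strand) for Fgfr3, chr10:99262981-99263280 (plus strand) for Dusp6 and chr14:105896770-105897069 (minus strand) for Spry2.
Fgfr3: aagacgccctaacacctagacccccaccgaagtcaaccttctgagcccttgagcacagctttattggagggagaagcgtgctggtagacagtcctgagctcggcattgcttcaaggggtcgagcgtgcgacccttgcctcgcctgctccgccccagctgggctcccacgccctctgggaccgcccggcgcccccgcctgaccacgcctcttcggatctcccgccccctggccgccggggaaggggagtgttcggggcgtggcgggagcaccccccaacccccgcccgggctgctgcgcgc
Dusp6: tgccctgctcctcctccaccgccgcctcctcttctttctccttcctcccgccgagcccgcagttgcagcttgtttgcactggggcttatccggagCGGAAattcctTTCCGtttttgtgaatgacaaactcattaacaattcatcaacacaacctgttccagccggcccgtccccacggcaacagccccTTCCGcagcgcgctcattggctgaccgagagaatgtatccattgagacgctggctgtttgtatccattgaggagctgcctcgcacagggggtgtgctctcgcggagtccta
Spry2: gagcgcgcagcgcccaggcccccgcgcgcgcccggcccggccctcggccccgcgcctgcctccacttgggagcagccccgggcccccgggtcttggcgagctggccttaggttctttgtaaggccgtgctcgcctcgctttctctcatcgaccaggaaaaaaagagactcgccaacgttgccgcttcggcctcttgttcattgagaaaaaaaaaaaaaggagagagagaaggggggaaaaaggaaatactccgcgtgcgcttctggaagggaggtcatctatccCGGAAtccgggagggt

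The Dusp6 window held 3 matches to CGGAA, the Spry2 window 1 and the Fgfr3 window 0. Over all 32851 promoter windows of this length, 29.9% held at least 1 match. A window was found for 8 members, all but Fgfr1 and Spry4, and 5 of their 9 windows held a match. The Runx core letters, searched as TGTGGT and TGCGGT on both strands, were in 0 of the same 9 windows, beside 22.4% of all windows. The motifs do not overlap each other in these windows. These matches describe letters only and say nothing about binding or about sites elsewhere in the genes.

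The other receptors overlapped between genotypes. Fgfr1, the most abundant receptor, which in embryos is broadly expressed, was at 65.5, 82.2, 52.6 and 49.2 CPM in the homozygotes, against 48.8, 87.7 and 62.5 CPM in the heterozygotes. The highest and the lowest library were both heterozygotes, and the log2 fold change was -0.0885 ± 0.26 (SE), and -0.054 without both libraries 3. Fgfr2, known for its epithelial and mesenchymal splice forms, was at 7.73, 7.70, 9.45 and 9.32 CPM in the homozygotes, against 4.83, 9.08 and 3.30 CPM in the heterozygotes. The homozygote libraries lay close together while heterozygote library 2 reached into their range. The log2 fold change of Fgfr2 was 0.57 ± 0.45 (SE), and it was 1.07 without heterozygote library 2 and 0.25 without both libraries 3.

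Fgfr4 and Fgfrl1 were near the limit of detection. Fgfr4 had 22 counts in heterozygote library 2 and 0 in the 6 other libraries, where a count of 0 allows up to 3 counts, or 0.219 to 0.261 CPM. It had no estimate. Fgfrl1, whose product binds FGF but has no kinase domain, had 8, 37, 50 and 3 counts in the homozygotes, against 9, 37 and 4 in the heterozygotes. Its libraries were spread over a wide range within both genotypes, and the log2 fold change was 0.45 ± 1.12 (SE). It was 1.85 without heterozygote library 2 and -0.65 without both libraries 3.

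The share of Fgfr3 among the receptors was higher in every homozygote library. This share and the ratio to Fgfr1 restate the Fgfr3 difference known when the set was chosen, and nothing is read from them. Per kilobase of exon, Fgfr3 made up 42.0%, 26.7%, 44.9% and 35.5% of the summed level of the 4 kinase receptors in the homozygotes, against 10.5%, 9.17% and 5.19% in the heterozygotes. Fgfr1 made up 55.3 ± 8.61% (SD, n = 4) in the homozygotes and 83.5 ± 6.12% (SD, n = 3) in the heterozygotes. Fgfr2 held a like share in both, 7.47 ± 1.91% in the homozygotes and 6.69 ± 1.84% in the heterozygotes (SD, n = 4 and 3). The ratio of Fgfr3 counts to Fgfr1 counts, which no library scaling can move, was 0.584, 0.288, 0.693 and 0.471 in the homozygotes, against 0.0927, 0.0848 and 0.0417 in the heterozygotes. The summed CPM of the 4 receptors was 101 ± 14.7 in the homozygotes and 77.6 ± 25.3 in the heterozygotes (SD, n = 4 and 3), with overlap.

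**Figure D2:**
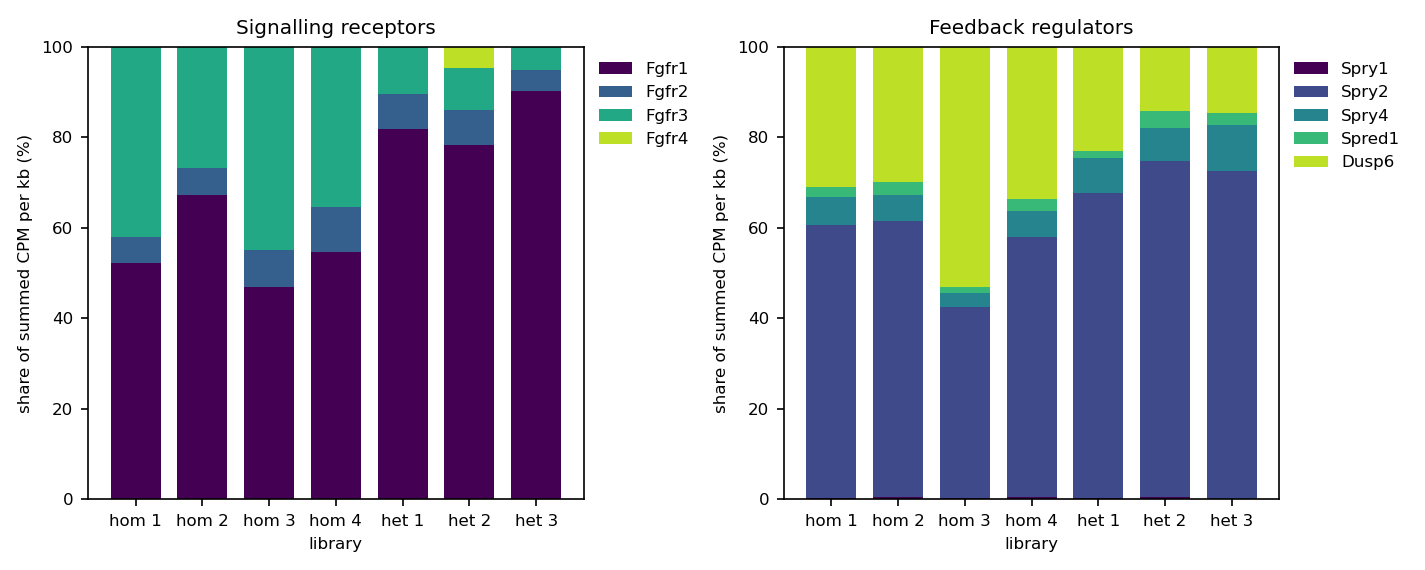
Share of each gene, in percent, of the summed CPM per kilobase of the 4 signalling receptors (left) and of the 5 feedback regulators (right), 1 bar per library, homozygotes (hom 1 to 4) before heterozygotes (het 1 to 3). Fgfr3 holds 26.7% or more of the receptor sum in each homozygote library and 10.5% or less in each heterozygote library. This restates the Fgfr3 difference known when the set was chosen.

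The Sprouty and Spred genes overlapped between genotypes. Spry2, which encodes an inhibitor of receptor signalling to ERK, was at 121, 115, 83.3 and 155 CPM in the homozygotes, against 126, 141 and 174 CPM in the heterozygotes. Homozygote library 3 was lowest and heterozygote library 3 highest. The log2 fold change was -0.31 ± 0.22 (SE), and -0.034 without both of these libraries. Spry4, of the same family, was at 28.1, 24.9, 13.9 and 35.3 CPM in the homozygotes, against 32.0, 31.5 and 55.6 CPM in the heterozygotes. Its highest homozygote library lay above the lower heterozygote libraries. The log2 fold change was -0.63 ± 0.34 (SE), and -0.11 without both libraries 3.

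Spred1, a Sprouty-related inhibitor that acts on Ras and Raf, was at 15.2, 17.4, 8.81 and 23.4 CPM in the homozygotes, against 10.1, 22.1 and 21.1 CPM in the heterozygotes; the genotypes overlapped. Its log2 fold change was -0.13 ± 0.41 (SE), and 0.22 without both libraries 3. Spry1 had 8, 19, 5 and 22 counts in the homozygotes, against 6, 14 and 0 in the heterozygotes, too few to resolve a difference. Its log2 fold change was 0.94 ± 1.21 (SE), with 2.14 without heterozygote library 2 and 0.64 without both libraries 3. The ratio of Dusp6 to Spry2 counts was 0.769, 0.735, 1.89 and 0.875 in the homozygotes, against 0.511, 0.287 and 0.301 in the heterozygotes. It did not overlap between genotypes, as Dusp6 alone did not. Nothing is read from this ratio, which restates the Dusp6 difference. The 5 regulators together came to 279 ± 49.2 CPM in the homozygotes and 258 ± 40.0 CPM in the heterozygotes (SD, n = 4 and 3).

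The choice of the set did not use the order of levels among its genes within a genotype. Changes in the places of Fgfr3 and Dusp6 between genotypes restate their differences given above. The set was chosen with results of this comparison known, so neither difference is independent of the choice. Levels per kilobase of exon in the heterozygotes ran from Spry2 (70.5 ± 11.9 CPM per kb) over Dusp6 (16.7 ± 3.78) to Spry4 (8.35 ± 2.89) and Fgfr1 (6.72 ± 2.0; SD, n = 3 each). Spry4 and Fgfr1 did not differ beyond their spread. Spred1 followed at 2.62 ± 0.98 CPM per kb. Fgfr3 (0.68 ± 0.34), Fgfr2 (0.56 ± 0.29) and Fgfrl1 (0.51 ± 0.56 CPM per kb) lay within each other's spread, and Spry1 and Fgfr4 were lowest. In the homozygotes Spry2 (56.7 ± 14.1 CPM per kb) and Dusp6 (37.5 ± 11.1) were again highest and nearer to each other, and Fgfr3 (4.24 ± 1.13; SD, n = 4 each) lay close to Spry4 (5.38 ± 1.87) and Fgfr1 (6.32 ± 1.52). Lengths were exon unions from GENCODE M21, which may differ from the models the authors counted. With the longest transcript in place of the union, Fgfr1 moved above Spry4 and Fgfr2 above Fgfr3 in the heterozygotes.

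Leukocyte markers also differed between the genotypes. Of the 16 leukocyte markers, 15 were found and tested, 13 were higher in every homozygote library (beside 6.6% of all genes), and their sum was 706, 817, 4122 and 961 CPM in the homozygotes, against 332, 342 and 292 CPM in the heterozygotes. Their part in the results was not tested. Without homozygote library 3, which had the highest sum, the log2 fold change of Fgfr3 was 2.54 and that of Dusp6 0.99. With the mean of the leukocyte markers as a covariate, which differed by genotype, the estimates were 1.98 for Fgfr3 and 0.71 for Dusp6, and the sign turned for the 7 other members tested. Spry2 (0.25), Spry4 (0.44), Spred1 (0.63) and Fgfr1 (0.061) became positive, and Fgfr2 (-0.15), Fgfrl1 (-2.02) and Spry1 (-0.65) became negative. With this covariate edgeR called 0 of all 14040 genes tested, so the targeted Runx3 was not called either. Genotype and the marker mean go together in these libraries and cannot be told apart, so nothing is read from the sign changes.

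Fgfr3 is also known from neural progenitors, so spinal cord markers were set beside it. The 18 markers summed to 518 to 1035 CPM in the homozygotes and 787 to 1015 CPM in the heterozygotes, nearly all of it Fabp7, which glial precursors share. Olig1 was at 0 counts in every library, and Olig2, Nkx6-1 and Nkx6-2 were at 0 in every heterozygote library. Without Fabp7, left out after the values were seen, the other 17 markers summed to 44.1, 39.8, 73.3 and 2.88 CPM in the homozygotes, against 15.3, 16.5 and 0.782 CPM in the heterozygotes. Of the 18, 7 were tested and edgeR called 0, beside 0.0499% of all genes. Of the 7, 6 had an estimate above 0, and the median log2 fold change was 1.78. Their part in the Fgfr3 result was not tested. Mesenchyme markers (143 to 560 CPM in the homozygotes, 66.5 to 274 CPM in the heterozygotes) and neural crest and glial markers (1157 to 2226 CPM in the homozygotes, 1799 to 2362 CPM in the heterozygotes) overlapped between genotypes. Endothelial markers summed to 2.64 to 37.3 CPM in the homozygotes and 0.935 to 4.84 CPM in the heterozygotes, and erythroid markers to 6.78 to 41.5 CPM in the homozygotes and 0.696 to 114 CPM in the heterozygotes. Skeletal muscle markers summed to 58.8 to 284 CPM in the homozygotes and 20.0 to 63.8 CPM in the heterozygotes. Single genes made up much of these sums. Pax3 was the largest part of the muscle sum in every library but homozygote library 2, where Actc1 was at 114 CPM. In homozygote library 3 Pecam1 was 33.8 CPM of the endothelial sum and Gata1 30.5 CPM of the erythroid sum. Hbb-y was 82.6 CPM of the erythroid sum in heterozygote library 2.

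The rest of the FGF pathway, listed by role and not by its values in these libraries, gave no call. Of 98 listed genes found in the table, 89 had counts, 77 were tested, and edgeR called 0, beside 0.0499% of all genes; 9 had an unadjusted p below 0.05, or 11.7% beside 12.6% of all genes. DESeq2 called 0 of the pathway genes, beside 4.72% of the genes to which it gave an adjusted p. The other 15 alternative settings also called 0. Over all genes those settings called 0 (leukocyte covariate) to 80 (no count filter), so a count of 0 is near their shares. Estimates were above 0 for 28 and below 0 for 49, with a median log2 fold change of -0.18 beside -0.0177 over all genes tested. The pathway median was 0.013 without both libraries 3 and 0.082 with the mean of the leukocyte markers as a covariate. It was below 0 in every other alternative setting. In 4 pathway genes every homozygote library was above the heterozygotes (5.19%, beside 6.6% of all genes). In 7 every one was below (9.09%, beside 5.78%).

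**Figure D3:**
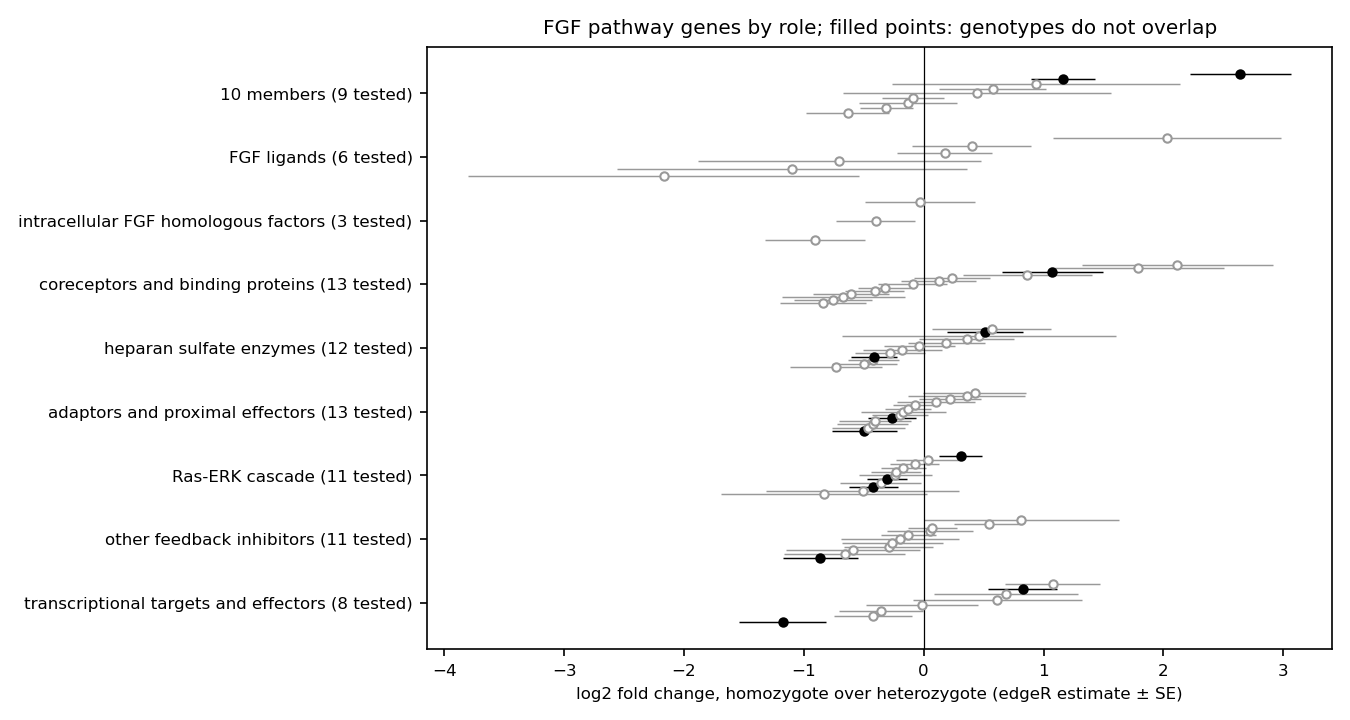
edgeR log2 fold change of homozygote over heterozygote (horizontal axis, bars are SE) for the 9 tested members and the 77 other pathway genes tested, grouped by role; filled points are genes whose genotypes do not overlap. Fgfr3, at 2.64, is the rightmost point of its row, and the members that overlap lie on both sides of 0.

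Few ligands passed the filter on low counts. Of 18 FGF ligand genes, 12 had counts and 6 were tested, with 0 called by edgeR, beside 0.0499% of all genes. Fgf15, a ligand known from the mouse neural tube and gut, had 704, 187, 487 and 254 counts in the homozygotes, against 199, 87 and 1 in the heterozygotes. The genotypes overlapped, and the estimate of 2.03 ± 0.95 on the log2 scale (SE) missed the threshold (adjusted p = 0.423, edgeR). It was 3.06 without heterozygote library 1, 1.46 without heterozygote library 3, 1.34 without both libraries 3, 3.42 by limma-voom and 0.49 with the leukocyte covariate. Fgf18, a ligand for which FGFR3 is a known receptor, averaged 13.7 ± 5.48 CPM in the homozygotes and 12.2 ± 1.82 CPM in the heterozygotes (SD, n = 4 and 3). The intracellular FGF homologous factors, which bind sodium channels and not the receptors, had 3 of 4 members tested. Fgf13 reached 864 ± 350 CPM in the homozygotes and 1141 ± 357 CPM in the heterozygotes (SD, n = 4 and 3). Its log2 fold change was -0.40 ± 0.33, and that of Fgf12 was -0.91 ± 0.42 (SE), or -0.38 without both libraries 3.

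Surface partners and heparan sulfate enzymes gave 0 calls by edgeR among 13 and 12 genes tested, beside 0.0499% of all genes. Of the coreceptors and binding proteins, 5 had an unadjusted p below 0.05 (38.5%, beside 12.6% of all genes). Higher in the homozygotes were Sdc4, Fgfbp3 (log2 fold change 2.12 ± 0.80, SE) and Gpc4 (1.79 ± 0.72). Lower were Flrt1 (-0.84 ± 0.36) and Sdc3 (-0.76 ± 0.33). Gpc1, a glypican, had a log2 fold change of -0.32 ± 0.22 and Flrt3, a membrane protein that binds FGF receptors, of 0.13 ± 0.32 (SE). Hs6st1, a heparan sulfate sulfotransferase, was at -0.036 ± 0.30, and Sulf2, which removes such sulfates, at -0.42 ± 0.21 (SE). Sdc4, a syndecan picked after its values were seen, was at 13.8 ± 4.76 CPM in the homozygotes and 6.56 ± 2.22 CPM in the heterozygotes (SD, n = 4 and 3) and its genotypes did not overlap. The estimate of 1.07 ± 0.42 on the log2 scale (SE) missed the threshold (adjusted p = 0.324, edgeR).

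Estimates for the signalling chain below the receptors were small for its most abundant genes. None of 13 adaptors and 11 Ras-ERK genes tested had an unadjusted p below 0.05 by edgeR, beside 12.6% of all genes. DESeq2 called 0 of them, beside 4.72% of the genes to which it gave an adjusted p. Grb2, the adaptor that brings Sos to the membrane, was at -0.070 ± 0.18 and Shc1 at -0.46 ± 0.31 on the log2 scale (SE). Nras was at -0.17 ± 0.19 and the kinase Araf at -0.31 ± 0.17 (SE). Among 11 other inhibitors tested, Lztr1, which promotes the loss of Ras proteins, was at -0.13 ± 0.23 and Rasa1, a Ras GTPase-activating protein, at 0.073 ± 0.20 (SE). Spred3, picked after its values were seen, was at 12.2 ± 2.57 CPM in the homozygotes and 22.2 ± 5.18 CPM in the heterozygotes (SD, n = 4 and 3) without overlap, and missed the threshold (adjusted p = 0.272, edgeR).

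Estimates for target genes lay on both sides of 0. Of 8 tested, edgeR called 0 (beside 0.0499% of all genes) and 3 had an unadjusted p below 0.05 (37.5%, beside 12.6%). These 3 were Ccnd1, Etv4 and Myc. Myc overlapped between genotypes, with an estimate of 1.08 ± 0.40 on the log2 scale (SE, adjusted p = 0.285, edgeR). Ccnd1, cyclin D1, was at 66.9, 47.9, 94.5 and 56.7 CPM in the homozygotes, against 41.6, 44.8 and 26.1 CPM in the heterozygotes. The estimate for Ccnd1 was 0.83 ± 0.29 on the log2 scale (SE), with an adjusted p of 0.253 by edgeR. It was 0.41 without both libraries 3, 0.48 in the window of label dates (without homozygote libraries 1 and 3) and 0.022 with the leukocyte covariate. Etv4, picked after its values were seen, was at 17.3, 18.2, 8.09 and 19.9 CPM in the homozygotes, against 23.6, 34.9 and 49.3 CPM in the heterozygotes. Every homozygote library was lower, the opposite of Dusp6, and the estimate of -1.18 ± 0.37 on the log2 scale (SE) had an adjusted p of 0.206 by edgeR. Etv5 was at -0.43 ± 0.33, Etv1 at -0.35 ± 0.35 and the immediate-early gene Fos at 0.69 ± 0.60 (SE), each with overlap.

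The genes whose levels across the 7 libraries were most like those of Fgfr3 were Zfp36 (r = 0.990), Ptpn7 (0.989), Bak1 (0.989), Cd3g (0.988) and Samd9l (0.985). These are Pearson correlations of log2 CPM, and 47 of 11174 genes searched reached 0.95; the libraries share their genotype split, so a gene that separates the genotypes can score high for that alone. Zfp36 encodes an RNA-binding protein that speeds mRNA decay, Ptpn7 a phosphatase of blood cells and Cd3g a chain of the T cell receptor complex. Cd3g averaged 6.97 ± 2.98 CPM in the homozygotes and 0.358 ± 0.317 CPM in the heterozygotes (SD, n = 4 and 3).

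Across the 16 alternative settings the estimate of Fgfr3 stayed between 1.98 and 3.08 and that of Dusp6 between 0.71 and 1.35 on the log2 scale. Spry4 ranged from -0.83 to 0.44 and Spry2 from -0.47 to 0.25, each positive in 1 setting, the leukocyte covariate. Fgfr1 was positive in 3 settings and negative in 13, and Spred1 positive in 6 and negative in 10. Fgfr2 ranged from -0.15 to 1.07, negative in 1 setting. Fgfrl1 and Spry1 had an estimate in 13 of the 16, where Fgfrl1 ranged from -2.02 to 1.85 and Spry1 from -0.65 to 2.14.

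**Figure D4:**
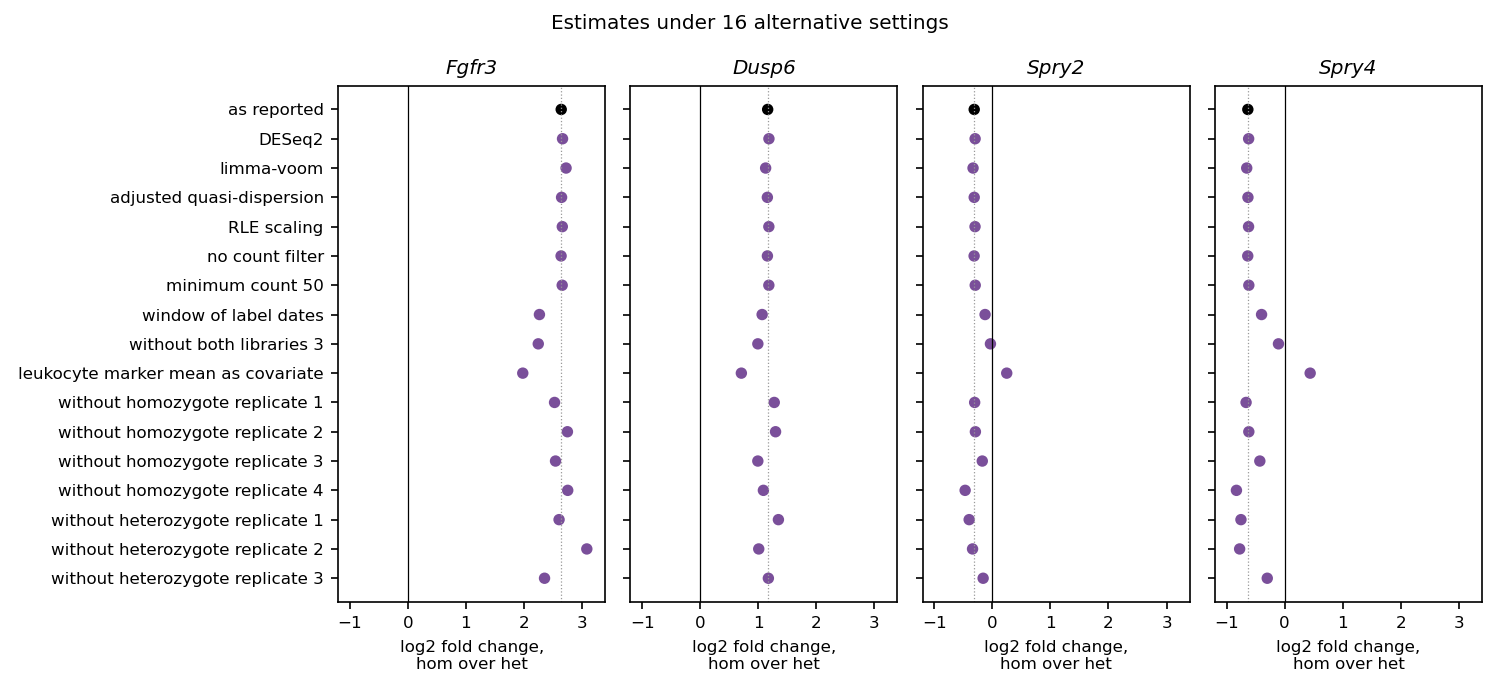
Log2 fold change of homozygote over heterozygote (horizontal axes) for Fgfr3, Dusp6, Spry2 and Spry4 as reported (black, top) and under each of 16 alternative settings (purple); the dotted line marks the reported value. Fgfr3 and Dusp6 lie right of 0 in every setting shown, and Spry2 and Spry4 lie right of 0 with the leukocyte covariate.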

How the data were processed

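Raw read counts per gene were deposited by the authors, 1 column per library. The submitters' processing notes name TopHat 1.4.0, HTSeq, DESeq2 1.2.8 and build mm9 but no role for any. Annotation and strand setting are not given in sources used here. The log2 fold changes and adjusted p-values that the authors deposited (heterozygote over homozygote) were read for comparison only, with the sign turned. Libraries were amplified cDNA read single-end, per the labels' protocols.

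Genes were kept by filterByExpr (minimum count 10, minimum total 15; 14040 kept) and scaled by TMM. Genotypes were compared over all genes with edgeR 4.0.16 (quasi-likelihood test, that release's default quasi-dispersion, Benjamini-Hochberg adjustment, R 4.3.3), called at an adjusted p below 0.05. The SE is the log2 fold change over the square root of F. DESeq2 1.42.0 and limma 3.58.1 (voom) were alternatives. The steps were tested on simulated counts. No 2 libraries of a genotype agreed within sampling noise (chi-square over its degrees of freedom 29.1 to 72.0). Limits from a count of 0 cover counting error only.

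The members, the gene lists and the rule for named genes were chosen with earlier results of these data known. The rule took Runx3, the members, the called genes or the most abundant pair of each pathway group, and the 5 genes most like Fgfr3. In GENCODE M21, exons of Fgfr1, Fgfr3 and Spry1 overlap opposite-strand models (164, 998 and 710 bases), and Fgfr2 overlaps Ctbp2 on its own strand (314 bases), so some reads may be shared.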

Additional observations from a re-analysis of the deposited data

How the results depend on the processing

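No paired analysis was possible because the labels give no replicate numbers shared between genotypes. The count of pathway genes called was 0 in every alternative run. Over all genes these runs called 0 (leukocyte covariate) to 718 (DESeq2). The count of members called was 0 as reported; it was 2 with DESeq2 (Fgfr3 and Dusp6), and 1 (Fgfr3) with each of 3 settings: edgeR's adjusted quasi-dispersion, no count filter and a minimum count of 50. The other alternatives, limma-voom and leaving out each library included, called 0 members. Over all genes they called 0 (leukocyte covariate) to 27 (without homozygote library 3), out of 13669 to 14664 tested. A count of 0 members is near these shares, and nothing is read from it. Why the settings differ was not tested. The window of label dates leaves out homozygote libraries 1 and 3; for heterozygote library 1 the labels disagree (title month 1, source name month 11), and month 11 was used.

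Of the 16 pathway genes named by rule, 12 had an estimate that changed sign in at least 1 alternative; none was called in any. With the leukocyte covariate the log2 fold changes were 0.67 for Fgf13, 0.072 for Fgf12, 0.082 for Gpc1, 0.39 for Hs6st1, 0.19 for Grb2, 0.30 for Shc1, 0.37 for Nras, 0.14 for Lztr1 and -0.047 for Rasa1. In the window of dates they were -0.077 for Flrt3, 0.31 for Hs6st1, 0.025 for Grb2, 0.094 for Lztr1 and -0.82 for Fos. Without both libraries 3 they were 0.11 for Fgf13, 0.20 for Hs6st1, 0.078 for Grb2 and 0.086 for Nras. Leaving out 1 library gave -0.029 to 0.41 for Fgf18, -0.11 to 0.39 for Flrt3, -0.33 to 0.11 for Hs6st1, -0.17 to 0.070 for Grb2, -0.27 to 0.045 for Lztr1 and -0.054 to 0.16 for Rasa1. Low counts limit what can be said of Fgfr4, Fgfrl1, Spry1 and most ligands.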

Other observations

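Homozygote library 1 was highest in Fos, Egr1, Zfp36 and Ier2, immediate-early genes that ERK and many other stimuli induce. These genes were chosen after their values were seen. Fos was at 192, 40.0, 129 and 28.7 CPM in the homozygotes, against 35.7, 61.1 and 84.9 CPM in the heterozygotes. Egr1 was at 76.4, 17.3, 22.99 and 13.7 CPM in the homozygotes, against 4.83, 29.8 and 29.4 CPM in the heterozygotes. Zfp36, the gene most like Fgfr3 over the 7 libraries, was at 119, 44.6, 92.6 and 54.6 CPM in the homozygotes, against 11.6, 20.6 and 6.52 CPM in the heterozygotes. Ier2 was at 16.8, 4.67, 8.57 and 8.56 CPM in the homozygotes, against 8.89, 12.9 and 7.56 CPM in the heterozygotes. Dusp1, another immediate-early gene, was at 23.2, 9.80, 13.5 and 12.9 CPM in the homozygotes, against 10.2, 27.9 and 15.3 CPM in the heterozygotes, so homozygote library 1 was the highest homozygote and heterozygote library 2 the highest of all 7. Dusp6 had a different order within the homozygotes, with library 3 highest. Myc was at 24.4, 50.5, 81.2 and 90.7 CPM in the homozygotes, against 34.1, 26.5 and 27.1 CPM in the heterozygotes, so homozygote library 1 was the lowest of all 7. The other homozygote libraries lay above every heterozygote library.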
